A study of Mus musculus with 10 samples.

Results

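The lemur tail kinases form a family of 3 genes, Aatk (also called Lmtk1), Lmtk2 and Lmtk3, whose m6A peaks were followed from wild-type to Mettl14-deficient mouse brain. They were found by gene name in the peak lists of both genotypes, and they were 3 of the 8516 genes named in either list. They carried 16 of the 15009 wild-type (WT) peaks and 8 of the 3673 knockout (KO) peaks. The family was chosen by the overlap of its WT and KO peaks, with Lmtk3 picked out for keeping 3 of 4, so its numbers and their contrast with the paralogs are a description without a test.

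N6-methyladenosine (m6A) is a methyl mark on adenosines inside messenger RNA, written in the nucleus by a complex of METTL3 and METTL14, and it is typically dense in long internal exons and around stop codons. In m6A-seq an antibody pulls down marked RNA fragments, and stretches richer in reads than the unselected input RNA are called as peaks. Lemur tail kinases are anchored in membranes by their N-terminal part and carry a kinase domain followed by a very long C-terminal tail. AATK and LMTK2 act on endosomes and on the traffic of membrane in growing neurites, and LMTK3 is a kinase enriched in neurons that has been tied to the traffic of NMDA receptors.

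The samples were cortex and hippocampus at postnatal day 5, with 3 IP and 3 input libraries of WT mice and 2 IP and 2 input libraries of mice in which Mettl14 was knocked out by Nestin-Cre. Nestin-Cre acts mainly in the neural lineage, so most blood-derived and vascular cells would keep an intact gene, which was not measured here. No source used here says whether WT mice carried the Cre. The labels name a tissue and also a serum-free culture medium, so the source of the RNA, tissue or culture, is not settled. The deposited data are 1 consensus list per genotype, so no difference between genotypes has a replicate error, and library depth is unknown.

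Mettl14 itself carried 1 WT peak and no KO peak, which does not measure its deletion. Of the tissue markers, 6 of 7 neuron genes and 8 of 8 telencephalon genes had a WT peak, but so did 4 of 4 astrocyte, 4 of 4 oligodendrocyte lineage, 3 of 3 microglia and 3 of 3 vessel genes, so peak presence does not sort cell types. At least 1 WT peak was still overlapped in the KO list for 6, 5, 2, 0, 1 and 1 of these genes, in the same order. Over all genes with a WT peak the share was 20.6%. The astrocyte gene Aldh1l1 counted through 1 of 150 bases. With so few genes per type, these counts do not order the cell types. A peak list holds no expression level. Fewer cells of a type, less RNA per cell and less methylation per RNA therefore cannot be told apart in what follows.

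A WT peak is called retained here when at least 1 of its exonic bases lay under a KO peak on the same strand, and lost otherwise. Over the whole WT list 12.9% of peaks were retained, and 20.6% of the genes with a WT peak had at least 1 retained peak. Lmtk3 retained 3 of its 4 WT peaks, Aatk 1 of 5 and Lmtk2 none of 7. The Wilson 95% intervals of these shares, which cover counting over peaks alone, ran from 30.1 to 95.4% for Lmtk3, from 3.62 to 62.4% for Aatk and from 0 to 35.4% for Lmtk2. The interval of Lmtk3 overlaps those of its paralogs, and peaks of a gene share a transcript and are not independent. Under a stricter demand, that a single KO peak covers 50% of the WT peak, the counts were 0 in all 3 genes. Over the whole WT list 6.52% of peaks were retained under that demand.

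**Figure D1:**
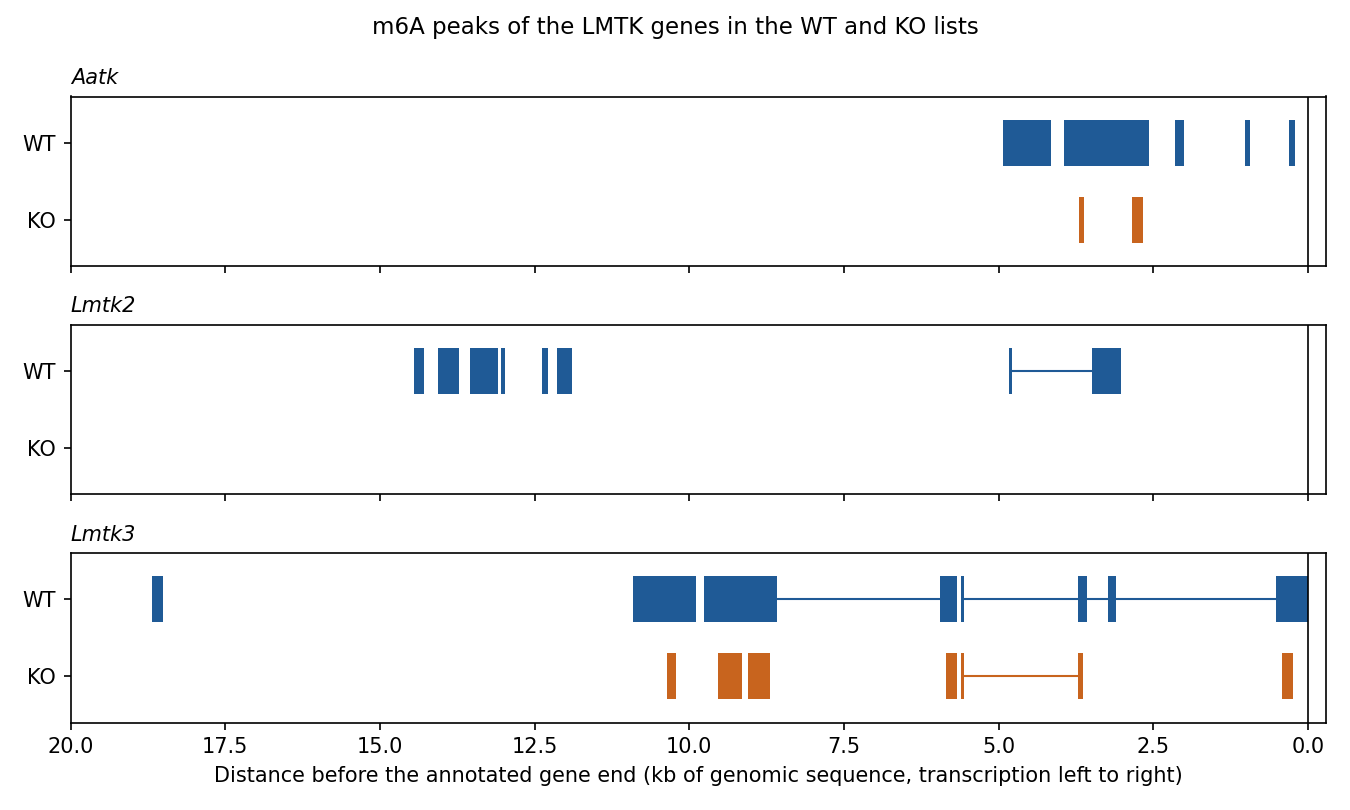
Positions of all WT (blue) and KO (orange) peaks of the 3 genes, plotted as genomic distance in kb before the annotated gene end, with transcription from left to right; boxes are exonic blocks and thin lines join the blocks of a peak. The 6 KO peaks of Lmtk3 and the 2 of Aatk lie within WT peaks, and Lmtk2 has no KO peak.

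Lmtk3 (Entrez gene 381983) lies on the plus strand of chromosome 7 from 45783134 to 45804144, in the mouse build GRCm38. Its 4 WT peaks together covered 3505 exonic bases, which placed it at rank 17 of 7717 genes by WT peak length. The KO list held 6 Lmtk3 peaks over 1383 exonic bases, rank 9 of 2879 genes, and 11 genes in all had 6 or more KO peaks. The KO list held more Lmtk3 peaks than the WT list because up to 3 narrow KO peaks fell within a single wide WT peak. Widths of KO peaks ran from 121 to 390 bases with a median of 180, against 180 to 1467 bases with a median of 929 in WT.

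The first Lmtk3 peak, counted along the transcript, was the lost one. It ran from 45785466 to 45785645, a single block of 180 bases that began 119 bases after an annotated transcript start. Deposited scores are read here, from their range, as p-values or q-values and are called listed p-values below. For this peak the listed value was 1e-112. By that value 21.5% of WT peaks were stronger, so a peak in the upper part of the WT list had no counterpart in the KO list. It was also the only Lmtk3 peak near the 5′ end of the gene, since the next one followed after 7593 bases.

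The second WT peak ran from 45793239 to 45794257 as a single block of 1019 bases, with a listed p-value of 5e-74. A KO peak from 45793778 to 45793928 lay inside it and covered 151 of its bases, 14.8%. That KO peak had a listed p-value of 6.3e-13, and 60.8% of KO peaks were stronger. This peak was therefore kept in name, but only over a small central part.

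The third WT peak was the widest of the family and held most of what remained in the KO list. It ran from 45794377 to 45798480 over 2 exonic blocks of 1185 and 282 bases, and its p-value was listed as 0, too small to be held. A KO peak of 390 bases from 45794616 to 45795005 and one of 360 bases from 45795095 to 45795454 lay in the first block, and a KO peak of 180 bases from 45798301 to 45798480 lay in the second. Together they covered 930 of 1467 bases, 63.4%, with nearly the same share in both blocks, 63.3% and 63.8%.

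The KO peak from 45794616 to 45795005 was among the strongest of the KO list. Its listed p-value was 1e-303, and 2.31% of KO peaks were stronger. The other KO peaks of Lmtk3 ranked lower. The share of KO peaks that were stronger was 26.2% (peak ending at 45798480), 28.9% (peak starting at 45803723) and 42.0% (peak starting at 45795095). It was 60.8% for the peak starting at 45793778 and 77.0% for the peak starting at 45798540. The third WT peak was thus represented in the knockout by 1 peak near the top of the KO list and 2 of lower rank.

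The fourth WT peak ran from 45798540 to 45804142, ended 2 bases before the gene end and joined 4 exonic blocks of 54, 136, 138 and 511 bases. Its p-value was also listed as 0. A KO peak over 2 blocks from 45798540 to 45800502 covered all 54 bases of the first block and 67 of the 136 bases of the second, and a KO peak from 45803723 to 45803903 covered 181 of the 511 bases of the last. The third block had no KO peak, and 302 of 839 bases, 36.0%, were covered in all. The KO peak in the last block ended 241 bases before the annotated gene end, and beyond it the 3′ end of Lmtk3 lay under the WT peak alone.

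Some borders coincided between the lists. The third WT peak and a KO peak both ended at 45798480, the fourth WT peak and the next KO peak both began at 45798540, and the 59 bases between them were in no peak of either list. Such matches are coarse. Widths of single-block peaks came in steps of about 30 bases, with 79.9% of WT and 89.2% of KO single-block peaks at a multiple of 30 or 1 base more, and 17 of the 20 single-block peaks of this family did so. In sum of bases, KO peaks covered 1383 of the 3505 WT peak bases of Lmtk3, 39.5%, and 6 of its 8 WT blocks.

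Aatk (Entrez gene 11302), which encodes the apoptosis-associated tyrosine kinase, lies on the minus strand of chromosome 11 from 120007311 to 120047183. Its 5 WT peaks covered 2485 exonic bases, rank 81 of 7717 genes, and all began at least 34941 bases into a gene span of 39873 bases. The KO list held 2 Aatk peaks over 270 bases. Of the WT peak bases 10.9% were covered, in 1 of 5 blocks.

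The strongest Aatk peak was lost. This peak, the first along the transcript, ran from 120011465 to 120012242 as a block of 778 bases with a p-value listed as 0. Among all WT peaks listed at 0 and at least 500 bases wide, 232 of 377 were retained, 61.5%. The lost Aatk peak thus falls among the lesser part of its class, whereas both Lmtk3 peaks listed at 0 were retained.

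The second Aatk peak, of 1376 bases from 120009880 to 120011255, was the retained one, with a listed p-value of 1e-153. A KO peak of 90 bases from 120010927 to 120011016 and one of 180 bases from 120009970 to 120010149 lay within it and 777 bases apart, and together they covered 19.6% of it. Their listed p-values were 4e-11 and 4e-18. By these, 71.0% and 41.7% of KO peaks were stronger, so neither ranked with the leading KO peak of Lmtk3.

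The 3 remaining Aatk peaks were narrow and weak, and none was retained. They ran from 120009312 to 120009461 (150 bases), from 120008243 to 120008332 (90 bases) and from 120007525 to 120007615 (91 bases), the last ending 214 bases before the gene end. Their listed p-values lay between 1.3e-13 and 3.2e-16, and 77.2 to 81.8% of WT peaks were stronger. An intron of Aatk hosts the hairpin of miR-338, a microRNA abundant in brain, on chromosome 11 from 120014765 to 120014862. The nearest Aatk peak lay 2523 bases from this hairpin, so no Aatk peak of either list touched it. Peaks are given as exonic blocks, so this does not describe methylation of the intron.

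Lmtk2 (Entrez gene 231876), whose product binds protein phosphatase 1, had the most WT peaks of the family and no KO peak. It lies on the plus strand of chromosome 5 from 144100361 to 144188208. Its 7 WT peaks covered 1831 exonic bases, rank 209 of 7717 genes, and all began at least 73404 bases into a gene of 87848 bases. Its widest peak had 509 bases, against 1376 in Aatk and 1467 in Lmtk3, and none of its p-values was listed as 0.

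The Lmtk2 peaks formed a cluster of 6 and a separate last peak. The cluster ran from 144173765 to 144176307, with widths of 151, 330, 450, 60, 91 and 240 bases along the transcript and gaps of 59 to 597 bases. The strongest of them was the sixth, from 144176068 to 144176307, with a listed p-value of 1e-101 and 24.0% of WT peaks stronger. The weakest was the fifth, from 144175828 to 144175918, at 2.4e-09 with 91.9% stronger.

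The seventh Lmtk2 peak followed after 7078 bases and ran from 144183386 to 144185188 over blocks of 36 and 473 bases. Its listed p-value was 1e-35, with 54.6% of WT peaks stronger, and it ended 3020 bases before the gene end. Every one of the 7 peaks was lost, including the sixth, which by listed p-value was of about the rank of the lost first peak of Lmtk3. In both Aatk and Lmtk2 the WT peaks were gathered in the 3′ part of the gene, whereas Lmtk3 also had a peak 2332 bases from its annotated gene start.

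**Figure D2:**
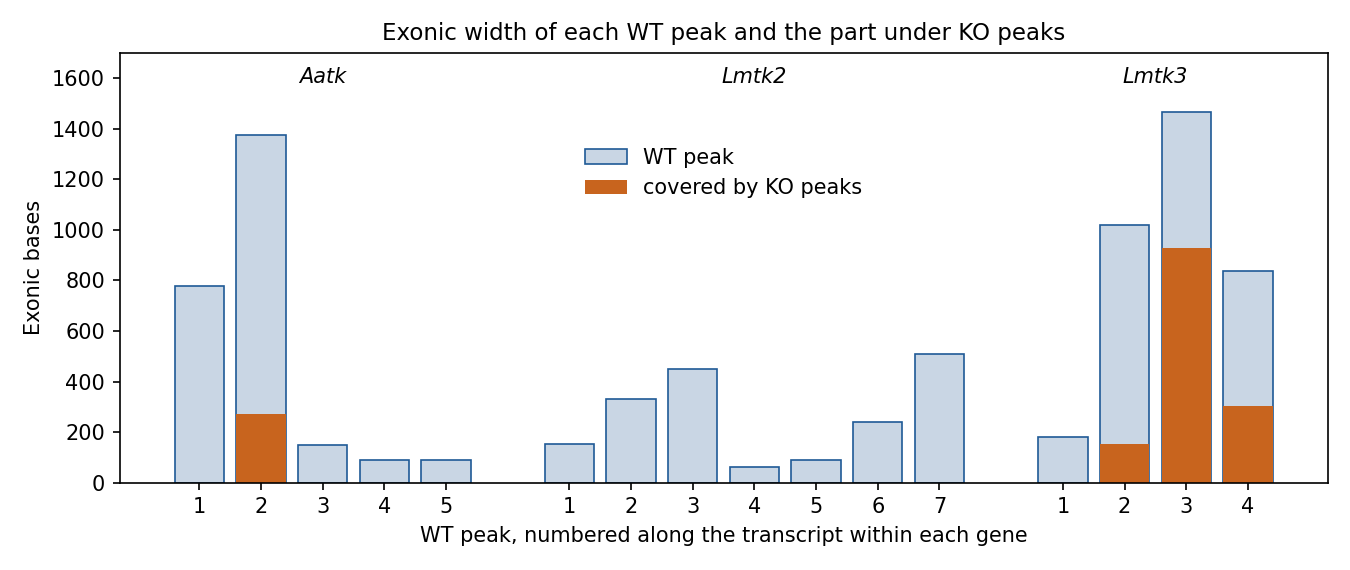
Exonic bases of each of the 16 WT peaks (pale bars), numbered along the transcript within each gene, and the bases covered by KO peaks (orange). Coverage reaches 930 of 1467 bases in the third Lmtk3 peak and 270 of 1376 in the second Aatk peak, and is 0 in all Lmtk2 peaks.

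Retention in the family went with the width of the WT peak. Of the peaks with more than 600 exonic bases, 4 of 5 were retained, all 3 of Lmtk3 and 1 of 2 of Aatk. None of the 4 peaks with more than 200 and at most 600 bases was retained, all of them in Lmtk2, nor were any of the 7 with 200 or fewer, 3 each in Aatk and Lmtk2 and 1 in Lmtk3. These classes were chosen after the values were seen. Over the whole WT list the retained shares in the same classes were 43.3% of 961, 17.6% of 6586 and 4.80% of 7462 peaks.

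Any overlap of 1 base counts, which favours wide peaks, and Lmtk2 had no peak above 600 bases. The family's retained peaks and its wide peaks are therefore nearly the same peaks, and how far width accounts for the order of the 3 genes was not tested. The share of WT peak bases under KO peaks counts bases in place of peaks. It was 39.5% in Lmtk3, 10.9% in Aatk and 0% in Lmtk2, against 9.75% over all WT peaks, 15.9% over those with more than 600 bases, 27.9% over those listed at 0 and 32.9% over those of 4 or more blocks. The third Lmtk3 peak is listed at 0, and the fourth is both listed at 0 and of 4 blocks. Against the 9.75% of pooled bases, Lmtk3 lay above the list as a whole, Aatk close to it and Lmtk2 below it. The median over all genes with a WT peak was 0%, the value of Lmtk2, and Aatk lay above that. Over genes with 4, 5 and 7 WT peaks, as in Lmtk3, Aatk and Lmtk2, the medians were 0%, 3.91% and 2.54%.

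**Figure D3:**
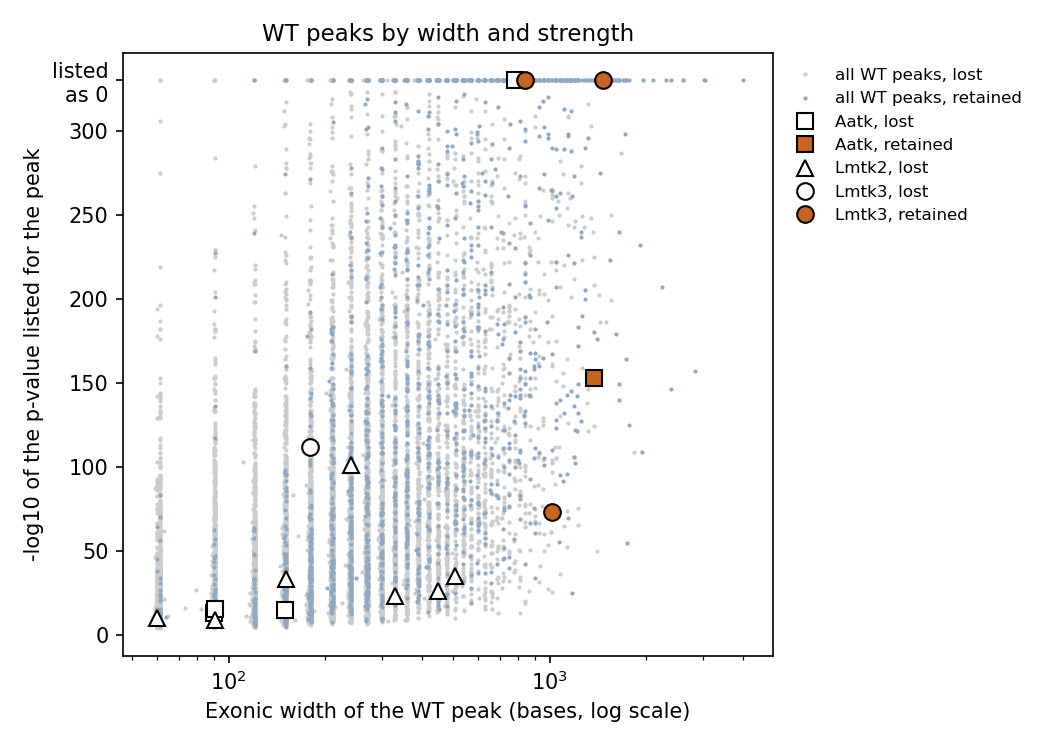
Every WT peak by exonic width (log scale) and by −log10 of the deposited score, read as a p-value or q-value. Values listed as 0 are drawn on a line of their own. Large symbols are the LMTK peaks, filled where retained. The 4 filled symbols are the peaks of 839, 1019, 1376 and 1467 bases, and all 11 LMTK peaks of at most 509 bases are open.

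The KO peaks of the family were all found where WT peaks were. All 8 lay with every exonic base inside a WT peak, whereas 43.6% of the 3673 KO peaks did so and 57.1% touched a WT peak at all. No KO peak of Aatk or Lmtk3 stood elsewhere in its gene. Since the family was chosen for its overlap, these numbers describe it and support nothing further.

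Set beside genes with the same number of WT peaks, the 3 paralogs held different places. Of the 469 genes with 4 WT peaks, 12 retained 3 of them as Lmtk3 did, 2.56%, and none retained all 4, while 61.2% retained none. Of the 226 genes with 5 WT peaks, 34.5% retained exactly 1 as Aatk did and 47.3% retained none. Of the 45 genes with 7 WT peaks, 42.2% retained none, as Lmtk2 did. Lmtk2 thus fell in the largest class of its group, Aatk in the class next in size and Lmtk3 in a small one, which is the feature that led to its choice.

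**Figure D4:**
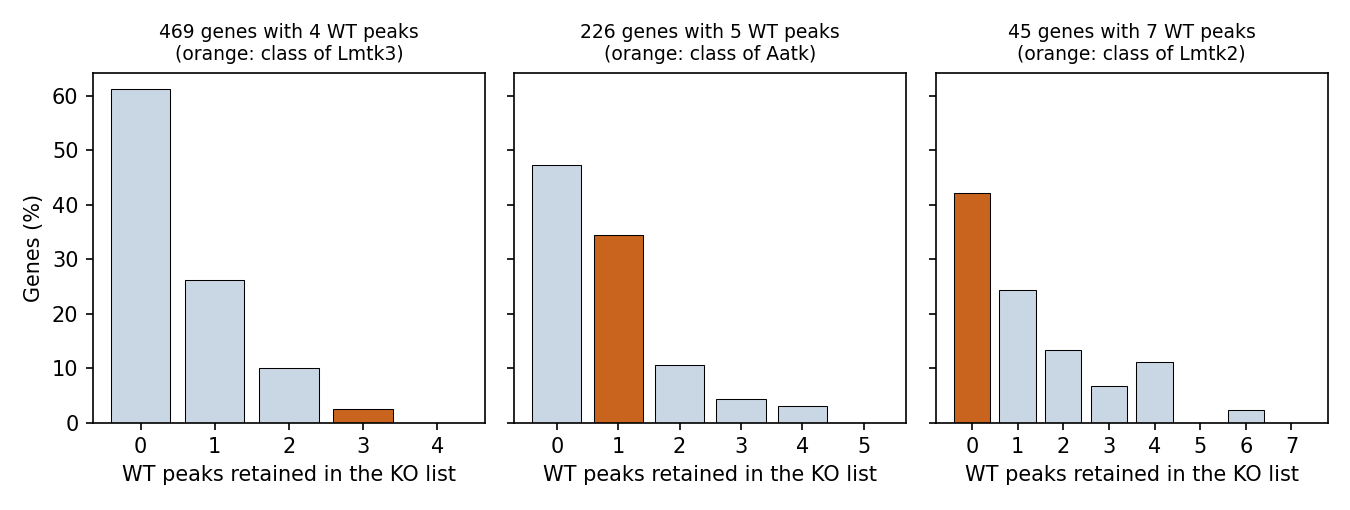
Percentage of genes by number of WT peaks retained in the KO list, for genes with 4, 5 and 7 WT peaks; the orange bar is the class that holds Lmtk3, Aatk and Lmtk2, respectively. The orange bars stand at 2.56%, 34.5% and 42.2%.

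Among the genes most like Lmtk3, those with 4 WT peaks of which 3 were retained and the nearest share of WT peak bases covered, were Kif5c (37.4%), Enah (42.6%), Smarca4 (36.2%) and Sox4 (32.6%). Kif5c encodes a neuronal kinesin heavy chain, Enah an actin regulator, Smarca4 an ATPase of chromatin remodelling and Sox4 a transcription factor. The likeness rests on these 2 lists alone. WT peak bases were 1294 in Kif5c and 2483 in Sox4, fewer than the 3505 of Lmtk3, so for these genes the likeness is in proportion and not in extent. Shank1, with the same 4 WT and 3 retained peaks and 31.7% of bases covered, was also close in extent, with 3322 WT peak bases. It was named after its values were seen.

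Genes that work with the lemur tail kinases were examined as a list of 30 partners, of which 23 had a WT peak. A retained peak was found in 12 of the 23 (52.2%, Wilson interval 33.0 to 70.8), beside 20.6% of genes in the whole list. Of their 55 WT peaks 16 were retained, 29.1%, beside 12.9% of peaks in the whole list. The partners were chosen with earlier results of these data known and were not matched for WT peaks per gene. The interval covers counting over genes alone and is no test of a difference. The median share of WT peak bases covered was 4.24% over these genes and 0% over all genes with a WT peak. With 50% of the WT peak covered by a single KO peak, 7 of the 23 genes remained. Under that demand 979 of all 15009 WT peaks were retained, 6.52%, and a share over all genes is not given here.

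Kif5a and Kif5c held the most retained peaks of the list. Kif5a, a kinesin heavy chain of neurons, retained 3 of 6 peaks and had 42.1% of its WT peak bases covered, and Kif5c retained 3 of 4. Kif5b, the kinesin heavy chain found in most cells, had 1 WT peak of 301 bases and no KO peak. The kinesin light chain gene Klc1 kept its single WT peak of 211 bases in full, Klc2 retained 1 of 3, and Myo6, which encodes the myosin that binds LMTK2, retained its only peak (60.1% of bases). Kif5b, Klc1, Klc2 and Myo6 were named after their values were seen.

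Partner genes of kinase and phosphatase signalling were split. Cdk5r1, which encodes the p35 activator of the kinase CDK5, lost all of 5 WT peaks over 1861 bases. Its paralog Cdk5r2 retained 1 of 2 and had 3 KO peaks, and Cdk5 had no peak in either list. The 3 catalytic subunit genes of protein phosphatase 1, Ppp1ca, Ppp1cb and Ppp1cc, and its inhibitor gene Ppp1r2 had 1 WT peak each, none wider than 151 bases, and no KO peak. Gsk3b, a kinase gene downstream of LMTK2, retained 1 of 3. Apart from Cdk5r1, these genes were named after their values were seen.

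Among genes of the recycling endosome, on which AATK acts through RAB11, Rab11fip5 retained 1 of 5 peaks (9.10% of bases), Rab11fip3 1 of 2 (15.1%) and Rab11fip4 1 of 2 (32.1%). Rab11fip2 lost 3 of 3 and had a KO peak elsewhere in the gene, and Tbc1d9b, which encodes a RAB11 GTPase-activating protein, lost a single peak of 901 bases. Of the NMDA receptor genes tied to LMTK3, Grin2b retained 1 of 6 peaks, with 121 of 2853 bases covered, and Grin1 lost 2 of 2. Grin2a had no WT peak and 1 KO peak. Slc12a5, the neuronal chloride exporter gene, lost its single peak. Rab11fip3, Rab11fip4, Grin2a and Slc12a5 were named after their values were seen.

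Other neuronal protein kinase genes gave a second frame for the family. A WT peak was listed for 51 of 62 such genes. A retained one was found for 16 of the 51 (31.4%, Wilson interval 20.3 to 45.0), beside 20.6% of genes in the whole list. Of their 138 WT peaks 25 were retained, 18.1%, beside 12.9% of peaks in the whole list. The median share of WT peak bases covered was 0%, as over all genes. These kinase genes were also chosen with earlier results known and were not matched for WT peaks per gene. Their interval covers counting alone and is no test of a difference. The kinase genes with most retained peaks were the mixed lineage kinase gene Map3k10 (3 of 4 peaks), the neurotrophin receptor gene Ntrk2 (3 of 6), the non-receptor tyrosine kinase gene Tnk2 (3 of 5) and Prkce (2 of 4), which encodes protein kinase C epsilon and was tied with Tnik (2 of 2) and Taok2 (2 of 8), ranked after it by WT peak length. The covered shares of WT peak bases were 31.3% in Map3k10, 30.1% in Ntrk2, 17.3% in Tnk2, 21.7% in Prkce and 24.0% in Taok2. Shares above the 39.5% of Lmtk3 were found in 3 kinase genes with fewer WT peaks, Tnik (77.1%), Map4k4 (48.7%) and Mink1 (42.2%). Tnik, Taok2, Map4k4 and Mink1 were named after their values were seen.

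Kinase genes with 5 or more WT peaks and none retained were the ephrin receptor genes Ephb2 (6) and Epha5 (5), Trio (6), whose product joins exchange factor domains to a kinase domain, Camk2a (5), the calcium and calmodulin-dependent kinase of excitatory synapses, and Camk1d (5), named after its values were seen. Ephb2 and Camk2a each had 1 KO peak outside their WT peaks. Lmtk2, with 7 lost peaks and no KO peak, held more WT peaks than any of these 5 genes. By the share of WT peak bases covered, Lmtk3 therefore stood in the upper part of these kinase genes and Lmtk2 with those at 0%, and no replicate spread is available to say which of them differ.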

How the data were processed

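The authors called peaks and deposited a consensus list per genotype, per the file headers with a score per peak, which was read as a p-value or q-value from its range (0 to 0.00015). Per the submitters' processing notes STAR and GRCm38 were used. No source used here names the peak caller or says how libraries were combined. Starts were taken as counted from 0 and are printed from 1. Overlapping entries of a list were merged by exonic blocks and strand, which changed no LMTK peak. Gene spans, transcript starts and the miR-338 hairpin came from RefSeq tables of GRCm38.p6; all 3 genes matched. Overlaps, checked on simulated lists, were computed in Python 3.11.15, and Wilson intervals with SciPy 1.17.1. No test was run: 1 list per genotype leaves no replicate error. The members, the lists of partners and kinases and the markers were chosen with earlier results of these data known. Named genes were, per list, up to 4 with most retained peaks and up to 4 with most WT peaks and none retained, plus the 5 nearest to Lmtk3 among genes with its 4 WT and 3 retained peaks, of which 1 is not reported here. Peak sequences, exon annotation and protein comparison were not used here. Alternatives are given in the closing section.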

Additional observations from a re-analysis of the deposited data

How the results depend on the processing

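No paired analysis was possible because each genotype has 1 pooled list, which also prevents leaving out a library. The KO list holds no Lmtk2 peak and none of the 9 alternatives run adds one, so its 0 KO peaks were fixed beforehand. Its retained peaks were also 0 throughout, which for the same reason says little about stability. Only 1 Lmtk2 WT peak, of 240 bases, was left with the WT list shortened to 3673 peaks. The same was true with the stronger 50% of each list. Lmtk3 kept 2 or 3 retained peaks and Aatk 1 except where a minimum coverage was asked for.

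With 50% of each peak of a pair shared, retained peaks and bases covered were 0 in Lmtk3 and 0 in Aatk, partner genes with a retained peak numbered 7, kinase genes 8 and retained WT peaks 939. When 50% of the WT peak had to lie under a single KO peak, they were 0 and 0 again. Partner genes then numbered 7, kinase genes 8 and retained WT peaks 979 of 15009, 6.52%. When KO peaks together had to cover 50% of the WT peak, a setting chosen after seeing the data, Lmtk3 retained 1 peak (26.5% of bases), Aatk 0, partners 7, kinases 9 and all peaks 1025. By construction these settings remove wide WT peaks under narrow KO peaks.

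With whole peak spans, introns included, KO peaks covered 29.6% of the summed spans of the Lmtk3 WT peaks. With the WT list shortened to 3673 peaks, the covered share was 49.6% in Lmtk3 and 12.5% in Aatk. A retained peak was found in 10 of 33 kinase genes and 8 of 13 partner genes. Of the 3673 WT peaks 1052 were retained, 28.6% against 12.9% of the full WT list. With the stronger 50% of each list, the covered share was 31.7% in Lmtk3 and 8.36% in Aatk. Lmtk3 then had 4 KO peaks and 2 of 4 WT peaks retained, and Aatk had 1 KO peak. A retained peak was found in 7 of 16 partner genes, and 1061 of 7504 WT peaks were retained, 14.1%. A gene counts with any 1 retained peak, and a share over all genes is not given for any alternative. The gene counts therefore cannot be set beside the shares of peaks. Fewer peaks enter both settings. Depth is unknown, so a weak peak may be missing from a list for want of reads.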
